A study of Mus musculus with 13 samples.

Results

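Apolipoproteins and the genes that move sterols and fatty acids in glial cells were followed in the frontal cortex of 5XFAD mice. The set holds 10 genes of this pathway, chosen with earlier results of these data known. They are the apolipoprotein genes Apoe, Clu and Apoc1, the lipase gene Lpl and the exporter genes Abca1 and Abcg1. The sterol enzyme genes Ch25h and Soat1 and the fatty acid and lipid droplet genes Fabp5 and Plin2 complete the set. All 10 were found among the 55536 genes of the deposited tables, and all 10 were among the 17518 genes that passed the filter on low counts. RNA sequencing was done on 13 libraries of mouse frontal cortex. There were 3 libraries of 5XFAD mice and 4 of WT mice at the age of 6 months, and 3 of each genotype at 11 months. 5XFAD mice carry mutated human transgenes under mouse Thy1 regulatory sequence, which acts mainly in neurons, and are a model of amyloid deposition. WT mice were of the strain B6SJLF1/J, and for the 5XFAD mice the strain is given by that name alone. No other allele or treatment is given for any group. Each title carries its own number, but nothing in the labels says whether it names an animal. Separate animals within a group are thus not stated. The spread that the p-values rest on may therefore be technical in part.

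In the brain, lipid travels between cells on small particles built around apolipoprotein E and clusterin (the product of Clu). Both come mostly from astrocytes, and in disease apolipoprotein E also comes from microglia. Exporters such as ABCA1 load cholesterol and phospholipid onto these particles, and liver X receptors, which sense oxysterols, switch on several of the genes involved. Glia that take up myelin or amyloid store the surplus as cholesteryl esters in lipid droplets, and Apoe, Lpl and Ch25h are known as genes of plaque-associated microglia.

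The start regions of 3 of the genes are shown because the results turn on Apoe, Abca1 and Ch25h, and because the last 2 hold sequence motifs known from lipid and inducible genes. Each line is the 250 bases ahead of the start that RefSeq gives, from the GRCm38.p6 build, read 5′ to 3′ on the minus strand, on which all 3 genes lie. Capitals mark matches to the motifs named after the sequences.
Apoe, chr7:19699189-19699438: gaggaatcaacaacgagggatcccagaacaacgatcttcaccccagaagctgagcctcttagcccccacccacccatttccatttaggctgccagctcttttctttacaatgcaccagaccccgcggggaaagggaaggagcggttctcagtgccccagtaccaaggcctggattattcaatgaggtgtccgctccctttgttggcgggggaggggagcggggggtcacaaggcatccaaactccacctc
Abca1, chr4:53159896-53160145: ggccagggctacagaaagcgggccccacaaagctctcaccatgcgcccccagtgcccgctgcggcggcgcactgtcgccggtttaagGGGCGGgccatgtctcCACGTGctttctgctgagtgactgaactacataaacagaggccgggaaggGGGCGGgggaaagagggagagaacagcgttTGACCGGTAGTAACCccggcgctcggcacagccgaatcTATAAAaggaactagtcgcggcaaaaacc
Ch25h, chr19:34475149-34475398: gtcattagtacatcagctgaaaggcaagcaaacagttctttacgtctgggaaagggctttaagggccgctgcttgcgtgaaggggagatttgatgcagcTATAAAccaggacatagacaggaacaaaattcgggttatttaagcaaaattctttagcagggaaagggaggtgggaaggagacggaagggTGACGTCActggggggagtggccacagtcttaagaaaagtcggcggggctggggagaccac

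A search for 7 motifs was made on both strands. In Abca1 the capitals mark a match to the repeat bound by liver X receptors (searched as GGTNA and GGTCA with 5 bases between them, here on the opposite strand) at bases -67 to -53 from the start, an E-box (CACGTG), 2 GC boxes (GGGCGG) and a TATA box (TATAAA) at -29 to -24. In Ch25h they mark a cyclic AMP response element (TGACGTCA) at -61 to -54 and a TATAAA at -151 to -146. The liver X receptor repeat occurred in 0.177% of the 32851 RefSeq start regions of the same length, TGACGTCA in 1.55%, CACGTG in 6.02%, TATAAA in 12.4% and GGGCGG in 32.7%. The other motifs, a PU.1 motif (GAGGAAGT, in 2.44% of start regions) and a PPAR repeat (2 units of AGGNCA with 1 base between them, in 0.338%), were in none of the windows read. RefSeq start regions were matched for 5 of the 10 genes, and those of Apoe, Soat1 and Plin2 held no match to any of the 7 motifs. The matches describe the letters only, and the motifs were chosen after these windows had been read.

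Totals ran from 23618296 to 26615776 counts per library. Thy1, whose regulatory sequence drives the transgenes, gave 2492 to 3143 CPM (counts scaled to library size by the TMM method) in 5XFAD at 6 months and 639 to 783 CPM in WT, and 2154 to 3249 CPM in 5XFAD at 11 months and 543 to 638 CPM in WT. Neuronal, astrocytic, microglial and oligodendrocyte markers were read in every library. WT library 1 at 6 months stood apart with 2984 CPM summed over 8 choroid plexus markers, against 5.37 to 39.8 CPM in the other 12 libraries. Summed over 8 oligodendrocyte markers, WT library 3 at 6 months held 14034 CPM and the other WT libraries of that age 6579 to 6788 CPM. The 5XFAD libraries of 6 months held 9897 to 12087 CPM of these markers. Read from Xist and Y-linked genes, all 3 of the 5XFAD libraries at 6 months were male and 2 of 4 WT libraries were female, and at 11 months 2 of 3 5XFAD libraries and 1 of 3 WT libraries were female.

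Set per transcript length, the 10 genes covered a wide range of levels, and the top of the order was the same in every group. Apoe averaged 3003 ± 444 TPM (the deposited level, scaled for transcript length) in 5XFAD at 6 months and 2685 ± 266 TPM in WT at 6 months, and 5928 ± 326 TPM in 5XFAD at 11 months and 3250 ± 501 TPM in WT at 11 months (SD, n = 3, 4, 3 and 3). By mean TPM it ranked 26th of all genes in 5XFAD at 6 months and 25th in WT, and 19th in 5XFAD at 11 months and 22nd in WT. In 5XFAD at 11 months its transcripts took 0.340% of all counts, against 0.177% in WT.

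Clu followed in every group, with 1062 ± 99.5 TPM in 5XFAD at 11 months and 712 ± 88.8 TPM in WT. Fabp5 came next, at 197 ± 19.0 TPM in 5XFAD at 11 months and 167 ± 16.5 TPM in WT. No library of these 3 genes overlapped with the next gene in the order in any group. Abcg1 and Lpl followed. Their libraries overlapped in 5XFAD at 11 months, where Lpl averaged 16.8 ± 1.96 TPM and Abcg1 16.6 ± 3.92 TPM, and in no other group. Lower levels were those of Plin2, Soat1, Apoc1, Abca1 and Ch25h, many of which overlapped with their neighbours in the order. Ch25h was lowest in both WT groups, at 0.848 ± 0.472 TPM at 6 months and 0.713 ± 0.305 TPM at 11 months, below the libraries of the next gene. In 5XFAD its libraries overlapped with those of Soat1 and Abca1 at both ages, at 2.85 ± 1.17 TPM at 6 months and 5.32 ± 0.837 TPM at 11 months.

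**Figure D1:**
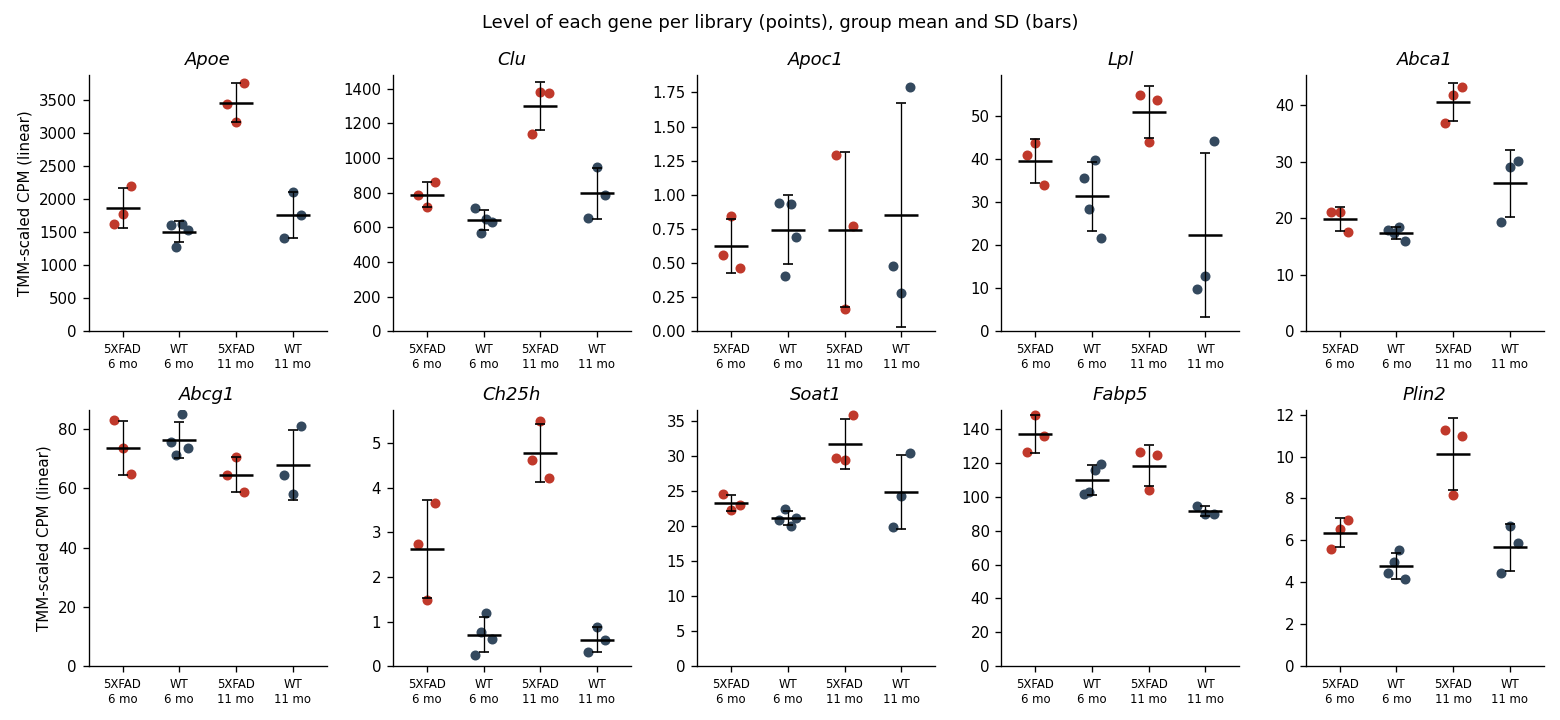
Level of each of the 10 genes in each of the 13 libraries, in TMM-scaled CPM on a linear axis that starts at 0. Points are libraries, long bars group means and error bars the SD. The 3 5XFAD libraries at 11 months lie above all 3 WT libraries for Apoe, Clu, Abca1, Ch25h, Fabp5 and Plin2, and WT library 3 stands at 44.2 CPM for Lpl beside 9.88 and 12.8 CPM.

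The comparison of 5XFAD with WT at each age asks how the transgenes go with the levels of these genes. At 11 months 6 of the 10 genes rose in 5XFAD (Apoe, Clu, Abca1, Ch25h, Fabp5 and Plin2), none fell, and 4 did not pass the test (Apoc1, Lpl, Abcg1 and Soat1). The threshold was an adjusted p under 0.05 by edgeR's quasi-likelihood test with Benjamini-Hochberg adjustment over all 17518 genes, of which 3.78% were higher and 0.497% lower by the same rule. The same 6 genes had no overlap in CPM between the 3 5XFAD and the 3 WT libraries, which held for 10.4% of all genes in that direction and 8.77% in the other. In TPM Fabp5 did overlap, at 177 to 215 in 5XFAD and 152 to 185 in WT. The median log2 fold change of the 10 genes was 0.67, beside -0.03 for all genes tested. The 10 genes were chosen with earlier results of these data known, so these shares and medians are no independent test. Both genes with a negative value, Apoc1 and Abcg1, had unadjusted p-values of 0.788 and 0.582 in edgeR, and neither DESeq2 nor limma called a member lower. At 6 months 1 of the 10, Ch25h, rose, where 1.3% of all genes were called higher and 0.0171% lower. Also at 6 months 5 genes (Apoe, Clu, Ch25h, Fabp5 and Plin2) had no overlap and were higher in 5XFAD, against 6.96% of all genes, and none was lower without overlap, against 5.05%. The median of the 10 genes was 0.30 and that of all genes -0.01. Unadjusted, 5 of the 10 and 1591 of all genes had p under 0.05 at 6 months.

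Apoe (ENSMUSG00000002985, GRCm38 chr7:19696109-19699188, minus strand) encodes the main lipid carrier of the brain. At 11 months it stood at 3443, 3165 and 3753 CPM in the 5XFAD libraries and at 1413, 2102 and 1758 CPM in the WT libraries. Every 5XFAD library was well above every WT library. The log2 fold change was 0.97 ± 0.15 (SE), a fold of 1.97 (edgeR, adjusted p = 0.00142). At 6 months the 5XFAD libraries held 1626, 1773 and 2204 CPM, and the WT libraries 1607, 1268, 1617 and 1535 CPM. They did not overlap, but the lowest 5XFAD library lay just above the highest WT library, and the log2 fold change of 0.31 ± 0.14 did not pass the test (adjusted p = 0.542). In TPM the groups did overlap at that age.

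Clu (ENSMUSG00000022037, chr14:65968483-65981547, plus strand) encodes clusterin, a secreted chaperone carried on the same particles. The 11-month libraries gave 1141, 1382 and 1377 CPM in 5XFAD and 653, 951 and 785 CPM in WT. The groups did not overlap, and WT library 2 was the highest of its group for Clu as for Apoe. The log2 fold change was 0.71 ± 0.14 (edgeR, adjusted p = 0.00664), and the adjusted p was 0.0778 when only these 2 groups were fitted. At 6 months Clu gave 788, 716 and 862 CPM in 5XFAD and 711, 571, 651 and 630 CPM in WT, with a log2 fold change of 0.30 ± 0.13 (adjusted p = 0.484). The highest of these WT libraries was library 1, the one with choroid plexus markers, a tissue in which Clu is abundant, and the part of that tissue in the value was not tested. Without that library the log2 fold change was 0.35 and still did not pass (adjusted p = 0.497).

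Apoc1 (ENSMUSG00000040564, chr7:19689481-19692660, minus strand) lies next to Apoe and encodes a small apolipoprotein that inhibits lipid transfer and lipolysis. It was near the limit of detection, with 4 to 32 counts per library in 5XFAD and 7 to 43 counts in WT. Over both ages it ranged between 0.161 and 1.29 CPM in 5XFAD and between 0.283 and 1.79 CPM in WT. The log2 fold changes were -0.26 ± 0.66 at 6 months and -0.19 ± 0.69 at 11 months (edgeR, adjusted p = 0.948 and 0.934). At 11 months the sign turned without 5XFAD library 2 (0.28) or without WT library 3 (0.95).

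Lpl (ENSMUSG00000015568, chr8:68880491-68907448, plus strand) encodes lipoprotein lipase, which frees fatty acids from lipoproteins. Its levels at 11 months were 54.9, 43.9 and 53.6 CPM in 5XFAD and 9.88, 12.8 and 44.2 CPM in WT. The 5XFAD libraries lay close together, while WT library 3 lay within their range and the other 2 WT libraries far below it. Its log2 fold change was 1.19 ± 0.46 (edgeR, adjusted p = 0.229). Without WT library 3 it was 2.16 ± 0.24 and passed the test (adjusted p = 0.000203), so 1 library decides the call. At 6 months Lpl held 40.9, 43.7 and 34.0 CPM in 5XFAD and 35.6, 28.4, 39.8 and 21.6 CPM in WT, with overlap and a log2 fold change of 0.33 ± 0.43 (adjusted p = 0.881). The low levels of WT libraries 1 and 2 at 11 months were thus below every library of the other 3 groups.

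Abca1 (ENSMUSG00000015243, chr4:53030787-53159895, minus strand) encodes the exporter that loads apolipoprotein E with cholesterol and phospholipid, and its start region is the one above with the liver X receptor repeat. At 11 months it gave 36.8, 41.7 and 43.2 CPM in 5XFAD and 19.3, 29.0 and 30.2 CPM in WT. All 5XFAD libraries were above all WT libraries. This gave a log2 fold change of 0.63 ± 0.14, a fold of 1.55 (edgeR, adjusted p = 0.0206). The call was lost without 5XFAD library 2 (adjusted p = 0.0602) or 3 (0.109), on the TPM scale with limma (0.0814) and when only these 2 groups were fitted (0.136). At 6 months the libraries ran from 17.5 to 21.1 CPM in 5XFAD and from 15.9 to 18.5 CPM in WT and overlapped (log2 fold change 0.19 ± 0.14, adjusted p = 0.760). On the TPM scale that value was -0.018, where the median of all genes was -0.11.

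Abcg1 (ENSMUSG00000024030, chr17:31057675-31117988, plus strand) encodes a second sterol exporter, which passes cholesterol to particles that already carry lipid. No test called it. In the older mice it ranged from 58.9 to 70.5 CPM in 5XFAD and from 58.3 to 81.0 CPM in WT, and at 6 months from 64.8 to 83.0 CPM in 5XFAD and from 71.3 to 85.2 CPM in WT. The groups overlapped at both ages. The log2 fold changes were -0.07 ± 0.13 at 11 months and -0.05 ± 0.12 at 6 months (edgeR, adjusted p = 0.843 and 0.938). The SE was thus smaller than that of Abca1 at 11 months, and a change of the size seen for Abca1 lay outside 2 standard errors.

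**Figure D2:**
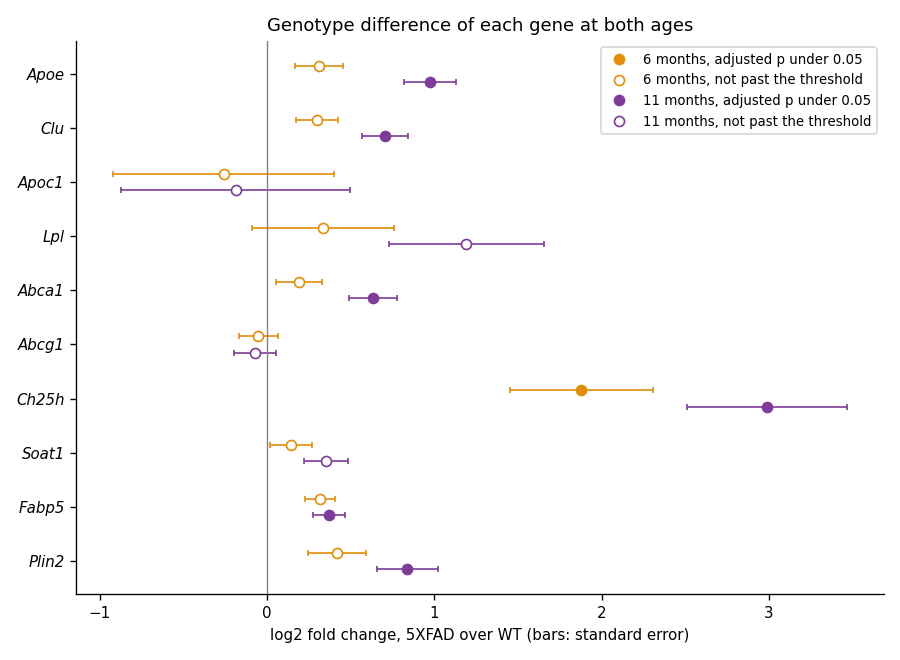
Log2 fold change of each gene, 5XFAD over WT, at 6 months and at 11 months, with bars for the standard error. Filled points passed an adjusted p under 0.05 in edgeR: Ch25h at 6 months, and Apoe, Clu, Abca1, Ch25h, Fabp5 and Plin2 at 11 months.

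Ch25h (ENSMUSG00000050370, chr19:34473778-34475164, minus strand) encodes cholesterol hydroxylase, the enzyme that turns cholesterol into an oxysterol which immune cells release. It had the highest fold of the 10 genes at both ages. The 11-month libraries read 4.61, 5.48 and 4.22 CPM in 5XFAD and 0.319, 0.888 and 0.583 CPM in WT, from 114, 136 and 109 counts in 5XFAD and 8, 22 and 14 counts in WT. The lowest 5XFAD library was several times as high as the highest WT library. The log2 fold change was 2.99 ± 0.48, a fold of 7.94 (edgeR, adjusted p = 0.00155). At 6 months it gave 2.74, 1.48 and 3.65 CPM in 5XFAD and 0.246, 0.772, 1.20 and 0.613 CPM in WT. These did not overlap, though 5XFAD library 2 was close to WT library 3. The difference was 1.88 ± 0.43 on the log2 scale, a fold of 3.68 (edgeR, adjusted p = 0.0480).

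That call at 6 months stood near the threshold. It was lost with sex as a covariate (log2 fold change 1.58, adjusted p = 0.141), with offsets for gene length (0.0601), with limma on TPM (0.0609) and when only these 2 groups were fitted (0.0981). It was also lost without 5XFAD library 1 (0.170) or 3 (0.276) and without WT library 1 (0.0964), 2 (0.129) or 4 (0.155), while DESeq2 kept it (0.00142). Sex and genotype were unbalanced at this age, and the part of sex in the value was not tested beyond that covariate. The call at 11 months held under every alternative run, with adjusted p between 2.12e-08 and 0.0105.

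Soat1 (ENSMUSG00000026600, chr1:156424525-156474331, minus strand) encodes the acyltransferase that makes cholesteryl esters for storage. Its 11-month levels were 29.8, 29.5 and 35.8 CPM in 5XFAD and 19.8, 24.3 and 30.4 CPM in WT. WT library 3 lay above both lower 5XFAD libraries. The log2 fold change was 0.35 ± 0.13 (edgeR, adjusted p = 0.188), and without WT library 3 it was 0.52 and passed the test (adjusted p = 0.0230), as it did with offsets for gene length (0.45, adjusted p = 0.0427). At 6 months it ranged from 22.3 to 24.6 CPM in 5XFAD and from 20.1 to 22.5 CPM in WT (log2 fold change 0.14 ± 0.12, adjusted p = 0.817). The value on the TPM scale was -0.10, where the median of all genes was -0.11. The mean transcript length that the authors' quantifier gave for Soat1 varied from 5296 to 8371 bases between libraries, so its CPM and TPM do not move in step.

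Fabp5 (ENSMUSG00000027533, chr3:10012548-10016607, plus strand) encodes a fatty acid binding protein of the cytosol. Libraries of 11 months held 127, 104 and 125 CPM in 5XFAD and 94.7, 89.9 and 90.0 CPM in WT. The groups did not overlap, and the log2 fold change of 0.37 ± 0.10, a fold of 1.29, passed the test narrowly (edgeR, adjusted p = 0.0474). That call was lost without each of 5XFAD libraries 1 (adjusted p = 0.195) and 3 (0.221) and WT libraries 1 (0.0707), 2 (0.0987) and 3 (0.116), with sex as a covariate (0.0888), with offsets for gene length (0.102), with limma on TPM (0.236) and when only these 2 groups were fitted (0.128). At 6 months it gave 126, 148 and 136 CPM in 5XFAD and 102, 103, 116 and 119 CPM in WT, again without overlap and with almost the same log2 fold change, 0.32 ± 0.09 (adjusted p = 0.163). In TPM the 5XFAD and WT libraries overlapped at both ages. Fabp5 was the only one of the 10 genes with estimated counts that were not whole numbers, in 8 of 13 libraries, so part of its reads was shared with other loci and its values are less certain.

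Plin2 (ENSMUSG00000028494, chr4:86648386-86670060, minus strand) encodes perilipin 2, the coat protein of lipid droplets. In the 11-month libraries it gave 11.2, 8.14 and 11.0 CPM in 5XFAD and 4.46, 6.66 and 5.87 CPM in WT. The groups did not overlap, and the log2 fold change was 0.84 ± 0.18, a fold of 1.79 (edgeR, adjusted p = 0.0156). The call was lost without 5XFAD library 1 (adjusted p = 0.0805) or 3 (0.0894), without WT library 1 (0.0619) and when only these 2 groups were fitted (0.0984). At 6 months it gave 5.60, 6.56 and 6.96 CPM in 5XFAD and 4.42, 4.96, 5.55 and 4.17 CPM in WT, with a log2 fold change of 0.42 ± 0.17 (adjusted p = 0.478). These libraries were just clear of each other, and per transcript length they overlapped, at 5.67 to 5.88 TPM in 5XFAD and 4.69 to 6.08 TPM in WT.

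Apoe, Clu and Ch25h were thus the genes whose call at 11 months held whichever single library was left out. The number of genes called was 4 without 5XFAD library 1, 5 without 5XFAD library 2 and 3 without 5XFAD library 3, and it was 4 without WT library 1, 5 without WT library 2 and 7 without WT library 3. When only the 6 libraries of 11 months were fitted, 2 of the 10 genes were called, Apoe and Ch25h.

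**Figure D3:**
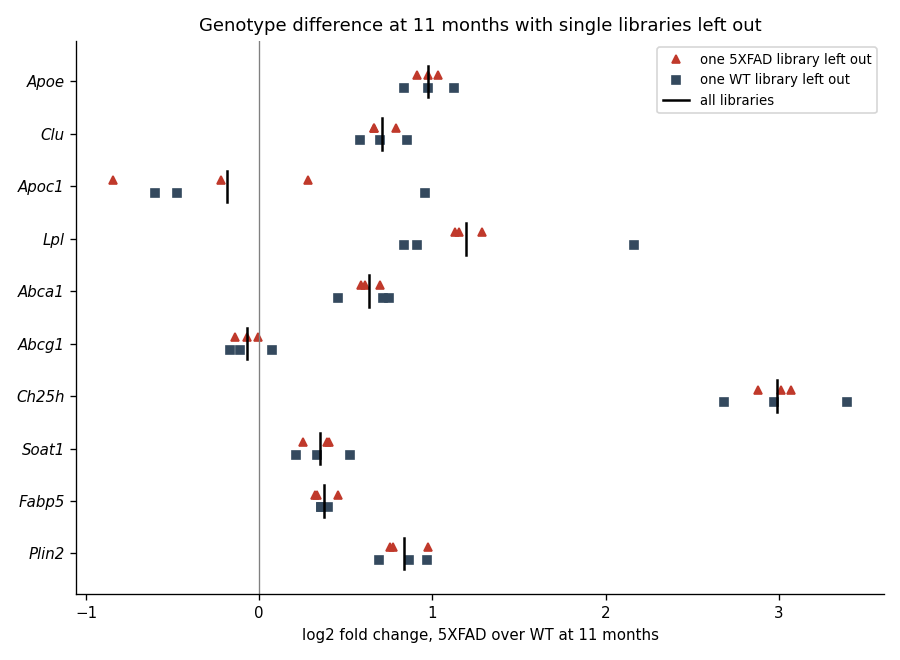
Log2 fold change of each gene, 5XFAD over WT at 11 months, with all libraries (black line) and with each single library left out (triangles for 5XFAD, squares for WT). Lpl ranges from 0.84 to 2.16 and Apoc1 from -0.84 to 0.95, while Apoe stays between 0.84 and 1.12.

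Whether the genotype difference itself grew between the ages was tested as an interaction, the log2 fold change at 11 months minus that at 6 months. It was 0.67 ± 0.21 for Apoe, 0.41 ± 0.19 for Clu, 0.44 ± 0.20 for Abca1, 0.42 ± 0.25 for Plin2, 1.11 ± 0.64 for Ch25h and 0.86 ± 0.63 for Lpl. It was 0.21 ± 0.18 for Soat1, 0.07 ± 0.95 for Apoc1, 0.06 ± 0.13 for Fabp5 and -0.02 ± 0.17 for Abcg1. The value was positive for 9 of the 10 genes, with a median of 0.41 beside -0.01 for all genes. For Apoc1, Fabp5 and Abcg1 it was smaller than its SE, so their signs are not settled. None of the 10 passed in edgeR (adjusted p = 0.9995 for each), DESeq2 or limma. Unadjusted, 3 of the 10 genes had p under 0.05, namely Apoe (0.0069), Abca1 (0.0430) and Clu (0.0463), as had 698 of the 17518 genes. In edgeR 0.00571% of all genes, a single gene, were called. That Apoe or Clu passed at 11 months and not at 6 months therefore does not show that their response differed between the ages.

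Age was then compared within each genotype. The 3 5XFAD libraries of 11 months serve both here and in the genotype comparison, and the WT libraries likewise, so these values are not independent of those above. In 5XFAD 4 of the 10 genes rose at 11 months relative to 6 months, where 4.84% of all genes did and 2.38% fell. Abca1 rose by a log2 fold change of 1.03 ± 0.15 (edgeR, adjusted p = 0.00364), Apoe by 0.89 ± 0.15 (0.00833), Clu by 0.72 ± 0.14 (0.0112) and Plin2 by 0.67 ± 0.18 (0.0427). For 7 of the 10 genes (these 4, Lpl, Ch25h and Soat1) every library of 11 months was above every library of 6 months, against 18.4% of all genes, and none was below, against 17.3%. Soat1 missed the threshold (0.44 ± 0.13, adjusted p = 0.0579) but passed in DESeq2 (0.0228), with limma on TPM (0.77, adjusted p = 0.0178), without a filter on low counts (0.0471) and in the fit of 2 groups (0.0176). Ch25h did not pass (0.86 ± 0.42, adjusted p = 0.227). All 3 5XFAD libraries of 6 months were male and 2 of the 3 of 11 months were female. Age and sex were thus partly confounded in this comparison. With sex as a covariate 3 of the 10 genes were called, Abca1 (1.15, adjusted p = 0.0102), Apoe (0.98, 0.0178) and Clu (0.82, 0.0178). Ch25h then had 1.33 (adjusted p = 0.103). The part of sex was not tested beyond that covariate.

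In these 5XFAD libraries the Abca1 rise held whichever library was left out. That of Apoe was lost without library 3 of 11 months (adjusted p = 0.0542) or library 1 of 6 months (0.0515), and that of Clu without the same libraries (0.0661 and 0.0586) or library 2 of 6 months (0.0511). That of Plin2 held only without library 2 of 11 months among the 6 libraries, and was lost with sex as a covariate (0.0886).

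Cell type markers moved with age as well. Of all genes 4.84% were called higher with age in 5XFAD and 2.41% in WT. In 5XFAD 8 of 10 microglial markers (median log2 fold change 0.84), 4 of 10 astrocyte markers (0.52), 4 of 8 endothelial markers (0.63), 3 of 7 markers of meninges and fibroblasts and 2 of 5 tested markers of border macrophages rose. In WT 5 of 8 endothelial markers (0.83), 2 of 10 astrocyte markers (0.51) and 1 of 5 tested markers of border macrophages rose, and the microglial sum was 411 to 709 CPM at 11 months and 389 to 414 CPM at 6 months. Their part in the age differences of the 10 genes was not tested.

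In WT 1 of the 10 genes, Abca1, rose with age, where 2.41% of all genes rose and 1.28% fell. In CPM it was also the only one of the 10 whose 11-month libraries were all above those of 6 months, as 9.12% of all genes were. In TPM those of Clu were so too, at 625 to 803 against 503 to 621. The log2 fold change of Abca1 was 0.59 ± 0.14 (edgeR, adjusted p = 0.0386). This call was lost with offsets for gene length (0.36, adjusted p = 0.142), limma on TPM (0.0859), sex as a covariate (0.0558) and the fit of 2 groups, and of the 7 single libraries left out it held only without WT library 1 of 11 months. Fabp5 was lower in all WT libraries of 11 months than in those of 6 months, as 7.96% of all genes were, at 89.9 to 94.7 CPM against 102 to 119 CPM, and did not pass the test (log2 fold change -0.26 ± 0.09, adjusted p = 0.105). Lpl had -0.49 ± 0.44 (adjusted p = 0.534), and without WT library 3 of 11 months it fell by 1.47 on the log2 scale and passed the test (adjusted p = 0.0116). Clu passed without WT library 1 of 11 months (0.44, adjusted p = 0.0351), beside 0.31 ± 0.13 (adjusted p = 0.153) with all libraries.

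The cells that make these transcripts cannot be separated in tissue RNA, where more cells of a type and more RNA per cell give the same reading. Of all genes 3.78% were called higher in 5XFAD at 11 months and 1.3% at 6 months. Microglial markers moved with genotype. The summed level of 10 markers (among them Csf1r, P2ry12 and Tmem119) was 1645, 1562 and 2077 CPM in 5XFAD at 11 months and 411, 709 and 565 CPM in WT, and 9 of the 10 markers rose, with a median log2 fold change of 1.35. At 6 months the sums were 853 to 990 CPM in 5XFAD and 389 to 414 CPM in WT, and 7 of the 10 rose. Of the 10 astrocyte markers 3 rose at 11 months (Gfap, Aqp4 and S100b), with a median of 0.27, and 1 rose at 6 months. Their sums were 5438, 6491 and 6510 CPM in 5XFAD at 11 months and 3466, 5601 and 3996 CPM in WT. WT library 2, the highest WT library for Apoe and Clu, was thus also the highest for these markers. It was the highest WT library of that age for microglial, neuronal, endothelial, mural, meningeal and red blood cell markers as well. For oligodendrocyte, choroid plexus, border macrophage and monocyte and neutrophil markers it was not. No defining marker of either list was at 0 throughout a group. Summed over 10 neuronal markers the libraries of 11 months held 9951 to 10532 CPM in 5XFAD and 7928 to 11002 CPM in WT. None of 8 oligodendrocyte markers was called in 5XFAD against WT, with a median log2 fold change of 0.41 at 6 months and 0.17 at 11 months. The part of these cell types in the values of the 10 genes was not tested.

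**Figure D4:**
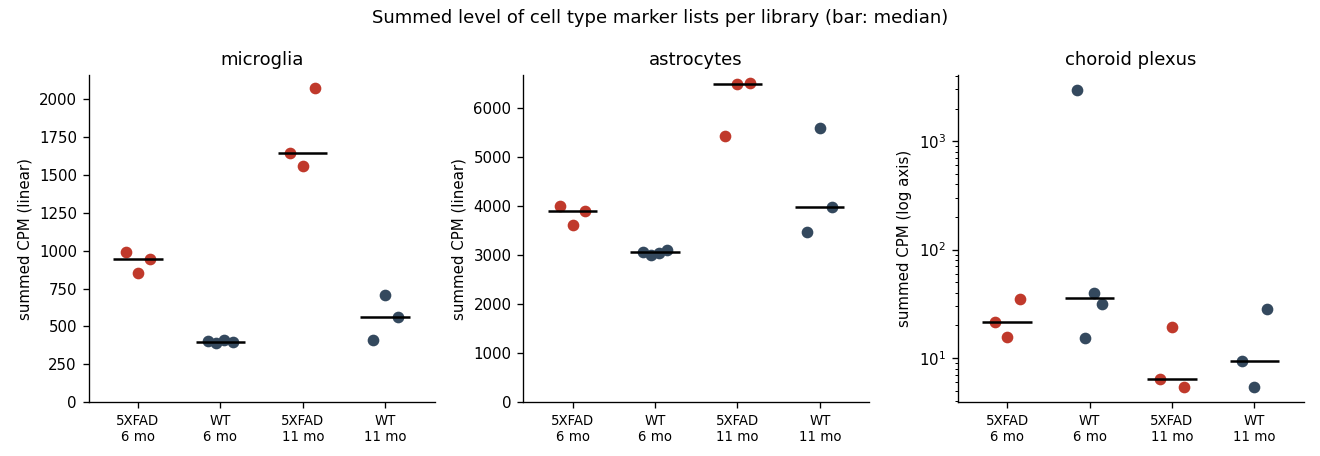
Summed CPM of the microglial, astrocyte and choroid plexus marker lists in each library, with the group median as a bar; the choroid plexus axis is logarithmic. The microglial sums of the 5XFAD libraries lie above those of the WT libraries at both ages, and WT library 1 at 6 months stands at 2984 CPM of choroid plexus markers.

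The wider pathway did not move as a block. Over 8 lists of related genes, 133 distinct tested genes beside the 10, 11 were called higher at 11 months by edgeR and none lower, beside 3.78% and 0.497% of all genes, and their median log2 fold change was -0.0019. Unadjusted, 19 of them had p under 0.05 in the higher and 8 in the lower direction, as had 2763 of all 17518 genes in either direction. DESeq2 called 14 higher and 2 lower, and limma on TPM 8 higher and none lower. At 6 months edgeR called 4 higher (Trem2, Gpr183, Npc2 and Bcl3) and none lower, beside 1.3% and 0.0171% of all genes. Unadjusted, 12 were higher and 6 lower at p under 0.05, as were 1591 of all 17518 genes in either direction. DESeq2 called 5 higher and 1 lower, and limma on TPM called 2 higher and none lower, with 5 higher and 13 lower at an unadjusted p under 0.05. Npc2 did not pass with limma on TPM (adjusted p = 0.0629), nor did Bcl3, whose call is given with its values.

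Among apolipoproteins and remodelling enzymes 3 of 17 tested genes rose at 11 months, beside 3.78% of all genes, and Apoe and Clu were 2 of them. The other was Apobr, which encodes a macrophage receptor for apolipoprotein B, at 3.95 ± 0.481 CPM in 5XFAD and 1.34 ± 0.559 CPM in WT (log2 fold change 1.56 ± 0.29, edgeR, adjusted p = 0.00543). Apod, a secreted lipid carrier gene, stood at 381 ± 111 CPM in 5XFAD and 206 ± 47.3 CPM in WT without overlap and did not pass (adjusted p = 0.213). Apol9b did not pass either (1.16 ± 0.48, adjusted p = 0.236). Of 20 lipoprotein receptor genes and regulators, 3 rose, Trem2 and Msr1 among them. Trem2, which encodes the microglial receptor for lipids and lipoproteins, stood at 211 ± 61.7 CPM in 5XFAD and 25.2 ± 7.15 CPM in WT (3.06 ± 0.25, adjusted p = 9.96e-06). Msr1, a scavenger receptor gene of macrophages, was read at 0.504 to 0.887 CPM in 5XFAD and at 0 to 0.0416 CPM in WT (adjusted p = 0.00362). These WT levels are too low to pass the filter on low counts, so Msr1 was kept only through libraries where it is high. Its log2 fold change was 4.47 in edgeR, 3.95 to 4.82 with 1 library left out and 0.37 to 4.71 among the other alternatives. Among those, limma on log2(TPM + 1) adds 1 to each level, which shrinks a log2 difference between levels this low.

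Of 16 lipase genes and their regulators 2 rose at 11 months, beside 3.78% of all genes, and both encode enzymes of the lysosome. Lipa, the acid lipase that frees cholesterol from its esters, stood at 19.1 ± 1.90 CPM in 5XFAD and 13.4 ± 0.812 CPM in WT (log2 fold change 0.51 ± 0.10, edgeR, adjusted p = 0.0104). Its call was lost without 5XFAD library 3 (0.0767), on the TPM scale (0.0836) and in the fit of 2 groups (0.0809). Pla2g15, a lysosomal phospholipase gene, stood at 44.4 ± 5.43 CPM in 5XFAD and 30.4 ± 0.274 CPM in WT (0.54 ± 0.09, adjusted p = 0.00249). Pla2g7 had 0.36 ± 0.13 (adjusted p = 0.158) and passed without WT library 2 (adjusted p = 0.0251).

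Of 18 tested genes of lipid-carrying ABC transporters, Abca1 was the 1 that rose at 11 months, a count near the 3.78% of all genes. Abca9 came next, at 11.0 ± 3.54 CPM in 5XFAD and 5.39 ± 2.01 CPM in WT without overlap (1.03 ± 0.28, edgeR, adjusted p = 0.0601). It passed in DESeq2 (0.0110), with offsets for gene length (0.0284), without a filter on low counts (0.0292), and without 5XFAD library 1 (0.0257) or WT library 3 (0.0332). Abcd2 had 0.25 ± 0.14 (adjusted p = 0.418) and Abca3 -0.19 ± 0.09 (adjusted p = 0.339). In the liver X receptor system and its known targets 2 of 22 tested genes rose, and these were Apoe and Abca1, so that none of the 17 outside the 10 genes passed in edgeR. Unadjusted, 5 of the 22 had p under 0.05 in the higher and 1 in the lower direction, beside 2763 of all 17518 genes in either direction. Closest was Mylip, a ubiquitin ligase gene, with 0.78 ± 0.23 (adjusted p = 0.0767), which passed in DESeq2 (0.0186), without a filter on low counts (0.0457) and without WT library 2 (0.00519). Srebf1, the gene of a transcription factor of lipid synthesis, had 0.38 ± 0.14 (adjusted p = 0.176) and passed without WT library 2 (0.0414).

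In the list of sterol esters, oxysterols and sterol trafficking 4 of 22 tested genes rose at 11 months, beside 3.78% of all genes, Ch25h among them. Gpr183 encodes the receptor for an oxysterol made from the product of Ch25h. It stood at 7.25 ± 0.571 CPM in 5XFAD and 1.16 ± 0.144 CPM in WT at 11 months (log2 fold change 2.64 ± 0.20, edgeR, adjusted p = 3.34e-06), and at 2.96 ± 0.198 CPM in 5XFAD and 0.849 ± 0.169 CPM in WT at 6 months (1.80 ± 0.19, adjusted p = 0.000123). Npc2 encodes the protein that hands cholesterol out of the lysosome. It stood at 133 ± 16.3 CPM in 5XFAD and 66.4 ± 3.34 CPM in WT at 11 months (adjusted p = 4.93e-05), and rose by a log2 fold change of 0.58 ± 0.10 at 6 months (adjusted p = 0.00644). Both genes had no overlap between 5XFAD and WT libraries at either age. Stard4, a sterol transfer gene, passed at 11 months (0.73 ± 0.19, adjusted p = 0.0430) and had the same value, 0.73 ± 0.17, without passing at 6 months (adjusted p = 0.0616). Its call at 11 months was lost without 5XFAD library 1 (0.193) or 2 (0.0947), without WT library 2 (0.130) or 3 (0.130), with sex as a covariate (0.0836), without a filter on low counts (0.0538), on the TPM scale (0.133) and in the fit of 2 groups (0.118).

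Of 29 fatty acid binding and lipid droplet genes 3 rose at 11 months, beside 3.78% of all genes. They were Fabp5, Plin2 and Agpat2, which encodes an acyltransferase of glycerolipid synthesis. Agpat2 stood at 3.40 ± 0.734 CPM in 5XFAD and 1.49 ± 0.199 CPM in WT (1.19 ± 0.22, edgeR, adjusted p = 0.00468). The adjusted p was 0.0602 in the fit of 2 groups. Fitm2 (-0.29 ± 0.10, adjusted p = 0.140) and Gpat3 (-0.68 ± 0.31, adjusted p = 0.307) did not pass. Genes that lie around Apoe on chromosome 7 were read to see whether the neighbourhood shared its change. Beside Apoe, 1 of the 7 tested neighbours outside the 10 genes rose, Bcl3, which encodes a regulator of NF-kappa B. It stood at 4.28 ± 0.828 CPM in 5XFAD and 0.445 ± 0.182 CPM in WT (3.25 ± 0.38, adjusted p = 0.000103). At 6 months it had 1.63 ± 0.36 (adjusted p = 0.0434), a call that was lost whichever of the 7 libraries of that age was left out (5XFAD library 1 0.286, 2 0.0524 and 3 0.0821, WT library 1 0.0618, 2 0.110, 3 0.0901 and 4 0.136), with limma on TPM (0.238), with sex as a covariate (0.0617) and in the fit of 2 groups (0.0888). Bcam (-0.33 ± 0.14, adjusted p = 0.281) and Clasrp (-0.21 ± 0.18, adjusted p = 0.663) did not pass.

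**Figure D5:**
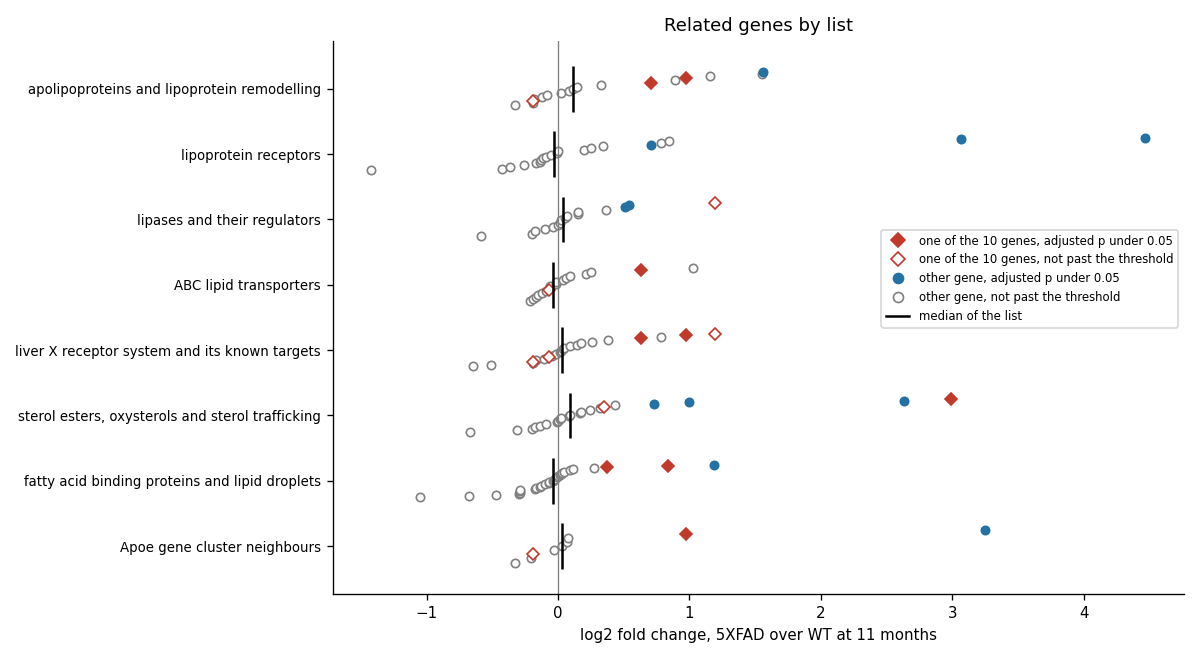
Log2 fold change, 5XFAD over WT at 11 months, of every tested gene of the 8 related lists, 1 row per list, with a black bar at the list's median. Filled marks passed an adjusted p under 0.05 in edgeR, diamonds are the 10 genes and circles all others; the filled marks are few and all lie to the right of 0, and the medians lie between -0.04 and 0.12. Some genes stand in more than 1 list.

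The genes nearest to each of the 10 in pattern were found by the root mean square difference of log2 CPM over the 13 libraries, each gene centred on its own mean, among 13480 genes with a mean of at least 1 CPM. These libraries share their groups, so the likeness describes these data only. For Apoe they were Crlf2 (0.12), Pald1 and Man2b1, where the pattern of Apoe itself had a root mean square of 0.49. For Clu they were Naaa (0.10), Pbxip1 and Fgfrl1, and for Abca1 Itga6 (0.12), Stom and Plpp3. Plin2 was nearest to Lpcat2 (0.14), Tor3a and Il10ra, and Soat1 to Ddah1 (0.08), Ugdh and Lpcat3. Fabp5 was nearest to Nsa2 (0.10), Rps7 and Sp3os, and Abcg1 to Orc3 (0.07), Tmem126b and Kars, though these patterns were themselves small (0.22 for Fabp5 and 0.17 for Abcg1). Ch25h had Naip2 (0.50), Slc15a3 and C3ar1 against its own 1.42. Lpl had Spint1 (0.40), Slc2a4 and Tpbgl against 0.73, and Apoc1 had Aspdh (0.47), Cpt1b and Slco5a1 against 0.85, so no gene followed either of these closely.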

How the data were processed

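Per the submitters' processing notes, STAR 2.7.1 aligned the reads to GRCm38 and RSEM quantified them; its version, annotation and strandedness were not given in the sources used here. Each deposited table holds RSEM expected counts per gene, in which reads that fit several genes are shared among them, and 7.24% to 7.71% of the values of a library were not whole. The TPM values are the authors' own, scaled for transcript length and deposited beside the counts. Levels between genes were compared only in TPM. Per the labels' protocols, total RNA from a column kit was made into Illumina libraries. The human transgenes were not analysed here. Over the 78 pairs of libraries the smallest chi-square per gene was 6.49, so none was counted as a repeat.

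All 55536 gene IDs matched GENCODE M21 of GRCm38, which gave symbols and coordinates. Expected counts were rounded to whole numbers. Genes were kept by filterByExpr (minimum count 10, minimum total 15), totals were scaled by TMM, and all 13 libraries entered 1 model, with a mean for each of the 4 groups, in edgeR 4.0.16 in R 4.3.3 (robust quasi-likelihood test, Benjamini-Hochberg adjustment, adjusted p under 0.05). The code was tested on simulated data. SEs come from the ratio of the unshrunken log2 fold change to the root of the F statistic. Alternatives were RLE scaling, no filter, DESeq2 1.42.0, limma 3.58.1 on log2(TPM + 1), sex as a covariate, offsets for gene length (lowess span 0.3), only the 2 groups compared, and each library left out in turn. Groups came from the titles. Library numbers follow accession order, and those that are equal pair nothing.

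All 10 genes are named, with the 3 genes of each related list that have the smallest p at 11 months and the 3 genes nearest in pattern; some genes that this rule chose are not reported here. The members and lists were chosen with earlier results of these data known.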

Additional observations from a re-analysis of the deposited data

How the results depend on the processing

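No paired analysis was possible because the library numbers are accession order and the labels tie no libraries together. The calls of Apoe and Ch25h at 11 months held under all 13 alternatives, and that of Clu under all but the fit of 2 groups. Genes called higher, 228 at 6 months, were 345 in DESeq2 and 137 with limma on TPM (133 to 203 with 1 library left out). The 1 member called at 6 months became 0 with gene length offsets, TPM, the fit of 2 groups and sex as a covariate (0 to 1 with 1 library left out). At 11 months the fit of 2 groups gave 418 in place of 663 genes and 2 in place of 6 members (404 to 709 genes and 3 to 7 members with 1 library left out). For the interaction, 1 gene became 28 in DESeq2 and 4 with TPM (1 to 3), and members stayed at 0. With age in 5XFAD, 847 genes became 1358 in DESeq2, 1499 in the fit of 2 groups and 563 with sex (87 to 630), and the 4 members became 5 in DESeq2, with TPM, without a filter and in the fit of 2 groups and 3 with sex (1 to 4 with 1 library left out). With age in WT, 422 genes became 1021 in DESeq2, 47 with length offsets, 265 with TPM, 0 in the fit of 2 groups and 248 with sex (0 to 998). The 1 member there became 0 with length offsets, TPM, the fit of 2 groups and sex (0 to 2 higher, and 0 to 1 lower). The cause was not tested.

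On the TPM scale the median of all genes moved to -0.11 at 6 months and -0.12 at 11 months. There 137 genes were higher and 37 lower at 6 months, against 228 and 3, and 518 higher and 334 lower at 11 months, against 663 and 87. With age, TPM gave 740 higher and 86 lower in 5XFAD, against 847 and 417, and 265 higher and 30 lower in WT, against 422 and 225; gene length offsets gave 47 and 12 in WT.

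Signs turned only in values that had not passed. With TPM at 6 months, where the median of all genes was -0.11, Abca1 was -0.018 and Soat1 -0.099. With TPM and age in WT, Apoc1 was -0.18 and Abcg1 0.12. In the interaction Apoc1 was -0.040 with sex, and Abcg1 was 0.018 with length offsets, 0.0056 without a filter and 0.089 with sex. With 1 library left out, Abcg1 ran from -0.14 to 0.034 at 6 months and from -0.17 to 0.073 at 11 months, and Apoc1 from -0.84 to 0.95 at 11 months. In the interaction Apoc1 ran from -0.59 to 1.21, Abcg1 from -0.12 to 0.12 and Fabp5 from -0.0016 to 0.14. With age, Apoc1 ran from -0.40 to 0.73 in 5XFAD and from -0.96 to 0.60 in WT, and Ch25h from -0.66 to 0.13 in WT. Apoc1 and the WT level of Ch25h rest on few counts, 4 to 43 and 6 to 31 per library.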
